A study of Arabidopsis thaliana with 6 samples.

Results

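Roots were set against rosette leaves in thale cress (Arabidopsis thaliana) at 3 matched lead doses. All 6 arrays of the series enter this comparison, 3 of root and 3 of leaf, paired by dose, and each array was placed by the organ and dose its label gives. Col-4 plants grew in hydroponic culture and were taken at growth stage 6; days lasted 10 h at 22 °C, nights 14 h at 18 °C, and the humidity was 70%. The groups were roots with no added lead, with 25 ppm and with 50 ppm lead, and rosette leaves of the same 3 doses. Lead went in as lead nitrate, in 2 additions between the full rosette and the first bud, and the control received none. The number of plants behind an RNA sample is not stated. The Affymetrix array used holds 8297 probe sets. Of these, 50 are controls, and 5414 of the remaining 8247 reached a signal of 25 on at least 1 array and were tested. A probe set is a group of short probes for 1 transcript, and its signal is the authors' scaled brightness on a linear scale.

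Each combination of organ and dose has 1 array and therefore no replicate. The 3 doses are the only repeats of the organ difference, so its p-values measure how much that difference varied between doses (2 residual degrees of freedom). Values under 8 were raised to 8 before taking log2, and a fold against such a value is a lower bound. Where 3 values follow one another they stand for 0, 25 and 50 ppm, and log2 differences are root minus leaf.

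Roots take up water and ions from the medium, anchor the plant, hold most of the metal it absorbs, and live on sugar sent down from the shoot. Rosette leaves carry chloroplasts, which capture light with pigment-protein complexes in the thylakoid membrane and fix carbon in the stroma. Both organs expand by loosening their cell walls, and both defend themselves with proteins and glycosylated small molecules, often through different members of the same gene families.

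The arrays were alike in scale. Median signals were 25.6, 25.4 and 29.3 on root arrays, against 22.3, 24.3 and 25.0 on leaf arrays, and the 50 brightest probe sets held 11.2 to 13.4% of the signal of root arrays and 15.4 to 19.7% of that of leaf arrays. The average background was 86.48, 97.8 and 192.65 on root arrays, against 85.32, 69.03 and 75.36 on leaf arrays. The 3′ to 5′ signal ratio of control transcripts, a measure of RNA integrity, was lower on the root array at each dose: 1.28, 0.826 and 1.16 in roots against 1.97, 2.03 and 1.40 in leaves for GAPDH, and 2.23, 2.06 and 2.00 in roots against 2.41, 2.83 and 2.74 in leaves for ubiquitin. The median of the spike-in controls was 103, 93.0 and 75.8 on root arrays, against 130.0, 203 and 83.5 on leaf arrays, and so was higher in leaves at each dose. A yeast control probe set, RIP1, read 11.9, 13.8 and 20.8 on root arrays, against 0.7, 1.0 and 0.8 on leaf arrays. RNA integrity and these controls therefore moved with organ in every comparison below, and their part in the results was not tested.

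The organs differed at about every other tested transcript. A limma fit with terms for organ and dose, at a Benjamini-Hochberg threshold of 0.05, called 2848 probe sets. Of these 1677 probe sets were higher in roots (31% of those tested) and 1171 were higher in leaves (21.6%). Leaves had fewer such transcripts but the steeper ones: 25 probe sets were at least 100-fold higher in roots, whereas 79 were at least 100-fold higher in leaves. Over all 5414 probe sets the median was 0.30. With each array brought to 1 median over its well-measured probe sets, it was 0.02 and the split was 1264 higher in roots and 1379 higher in leaves, so the root share of the calls was 47.8% there, against 58.9% with the deposited scale. Between these scales 2435 probe sets were called in the same direction and 0 in opposite directions. Which organ had more of the higher transcripts therefore depended on the scale. The share called was 45.7% among probe sets with a mean signal under 50 and 65% among those of at least 300. Over all tested probe sets it was 52.6%, against 42.2% with a floor of 25 and 24.3% of 8247 without a filter.

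Of the tested probe sets, 2317 name exactly 1 gene and cover 2198 genes. Averaged per gene, 686 genes were higher in roots (31.2%) and 402 in leaves (18.3%), with a median difference of 0.35. These shares are the background for the gene groups below. The groups were put together from gene names, the counts in them come from this fit per gene, and the adjusted p of a named gene comes from limma over all 5414 probe sets. In whole organs, fewer cells of a type and less RNA per cell cannot be told apart.

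The leaf label was borne out by the photosynthetic apparatus. All 12 tested genes of the light reactions and antenna were higher in leaves, with a median difference of -6.12, and so were all 5 of carbon fixation and photorespiration, with a median of -7.41. PSBW (AT2G30570), a small subunit of photosystem II, measured 3.7, 4.3 and 4.3 in roots, against 4441, 6023 and 4817 in leaves. Every root array lay under the floor and every leaf array was among the brightest signals, so PSBW was at least 631-fold higher there (-9.30 on the log2 scale with a standard error of 0.21, adjusted p = 1.2e-05), and its other probe set at least 542-fold. PSAE-1, a stromal subunit of photosystem I that takes part in ferredoxin docking, measured 4.6, 4.1 and 3.4 in roots, against 3194, 4184 and 3492 in leaves on its widest-apart probe set. Its other probe sets were at least 136-fold and 132-fold higher in leaves. The antenna gene LHCB4.1, which links the main light-harvesting complex to photosystem II, measured 76.7, 48.2 and 59.0 in roots, against 4640, 6276 and 5114 in leaves. Root signals of LHCB4.1 lay clearly above the floor, yet the organs were 88.1-fold apart. LHB1B2, an antenna protein of the most abundant complex, measured 87.6, 87.0 and 11.6 in roots, against 2910, 3060 and 3040 in leaves. The mildest differences in the group were those of the assembly factor PAM68 (-2.44) and of NdhS (-3.84), a subunit of the chloroplast NADH dehydrogenase-like complex. AT4G01150, which shapes the curved edges of thylakoid stacks (CURT1A), had a difference of -5.48, and TROL, which tethers ferredoxin-NADP reductase to the thylakoid, one of -5.20.

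Carbon fixation genes were as far apart. RCA (AT2G39730), Rubisco activase, measured 14.5, 8.8 and 27.6 in roots, against 3013, 4183 and 3363 in leaves, and was 229-fold higher in leaves (adjusted p = 5.7e-05). PRK, phosphoribulokinase of the Calvin cycle, measured 1.0, 1.6 and 1.7 in roots, against 1241, 1437 and 1418 in leaves. No root array of PRK reached the floor, so its 170-fold higher level in leaves is a lower bound. SBPASE, sedoheptulose bisphosphatase of the same cycle, was at least 103-fold higher in leaves. HPR, the peroxisomal hydroxypyruvate reductase of photorespiration, measured 5.9, 10.8 and 7.1 in roots, against 1486, 2042 and 1494 in leaves. TRXF2, a thioredoxin that switches on Calvin cycle enzymes in the light, had root signals of 68.9, 45.8 and 24.5, against 1384, 1304 and 1146 in leaves. It had the smallest difference of the 5, at -4.90.

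Pigment synthesis was split between steps. Of 8 genes for chlorophyll and carotenoids, 0 were higher in roots, 7 were higher in leaves and 1 did not pass, with a median of -2.26. The late chlorophyll steps were the widest apart: AT1G74470, geranylgeranyl reductase, measured 9.7, 13.2 and 7.4 in roots, against 2558, 3253 and 2662 in leaves, and PORB, a light-dependent protochlorophyllide reductase, measured 2.5, 8.3 and 2.7 in roots, against 1273, 2026 and 1665 in leaves. LIL3:1, which anchors geranylgeranyl reductase, had a difference of -6.32. Earlier steps of the pathway, which also feed heme, differed less: HEME2, uroporphyrinogen decarboxylase, measured 41.2, 46.3 and 47.5 in roots, against 373, 326 and 249 in leaves, and GSA1, an aminotransferase near the start, had a difference of -1.31. HEMA2, an isoform of glutamyl-tRNA reductase, measured 24.5, 34.5 and 27.0 in roots, against 29.3, 26.4 and 20.3 in leaves, and its groups overlapped. In carotenoid synthesis, Z-ISO had a difference of -1.73. LYC, lycopene cyclase, was higher in leaves on 1 of its probe sets (-1.48), a call lost under 3 alternatives, with an adjusted p of up to 0.149; the other probe set had -0.79 (adjusted p = 0.064).

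Other plastid proteins were lower in roots to a smaller extent, and some were level. Of 8 genes for the plastid envelope, plastoglobules and division, 5 were higher in leaves and 3 did not pass. FIB, a fibrillin of plastoglobules, the lipid droplets of plastids, measured 31.9, 42.5 and 33.7 in roots, against 573, 864 and 565 in leaves. Its relative AT4G22240, fibrillin 1b, measured 33.7, 37.5 and 51.7 in roots, against 270.2, 380.0 and 346 in leaves. The division protein FTSZ2-1 had a difference of -1.15, and the adenylate carrier ATNTT2, which also serves non-green plastids, one of -0.13. Of 7 redox enzymes of plastids, 5 were higher in leaves. AOR, which detoxifies reactive carbonyls in chloroplasts, measured 2.3, 2.7 and 1.1 in roots, against 331, 414 and 254 in leaves. TAPX, the ascorbate peroxidase bound to thylakoids, was at least 35.2-fold and 34-fold higher in leaves on its 2 probe sets, while SAPX, its stromal counterpart, had a difference of 0.49 and glutathione reductase GR one of -0.44, and neither passed. NTRC, a thioredoxin reductase of chloroplasts, was 7.60-fold higher in leaves.

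**Figure D1:**
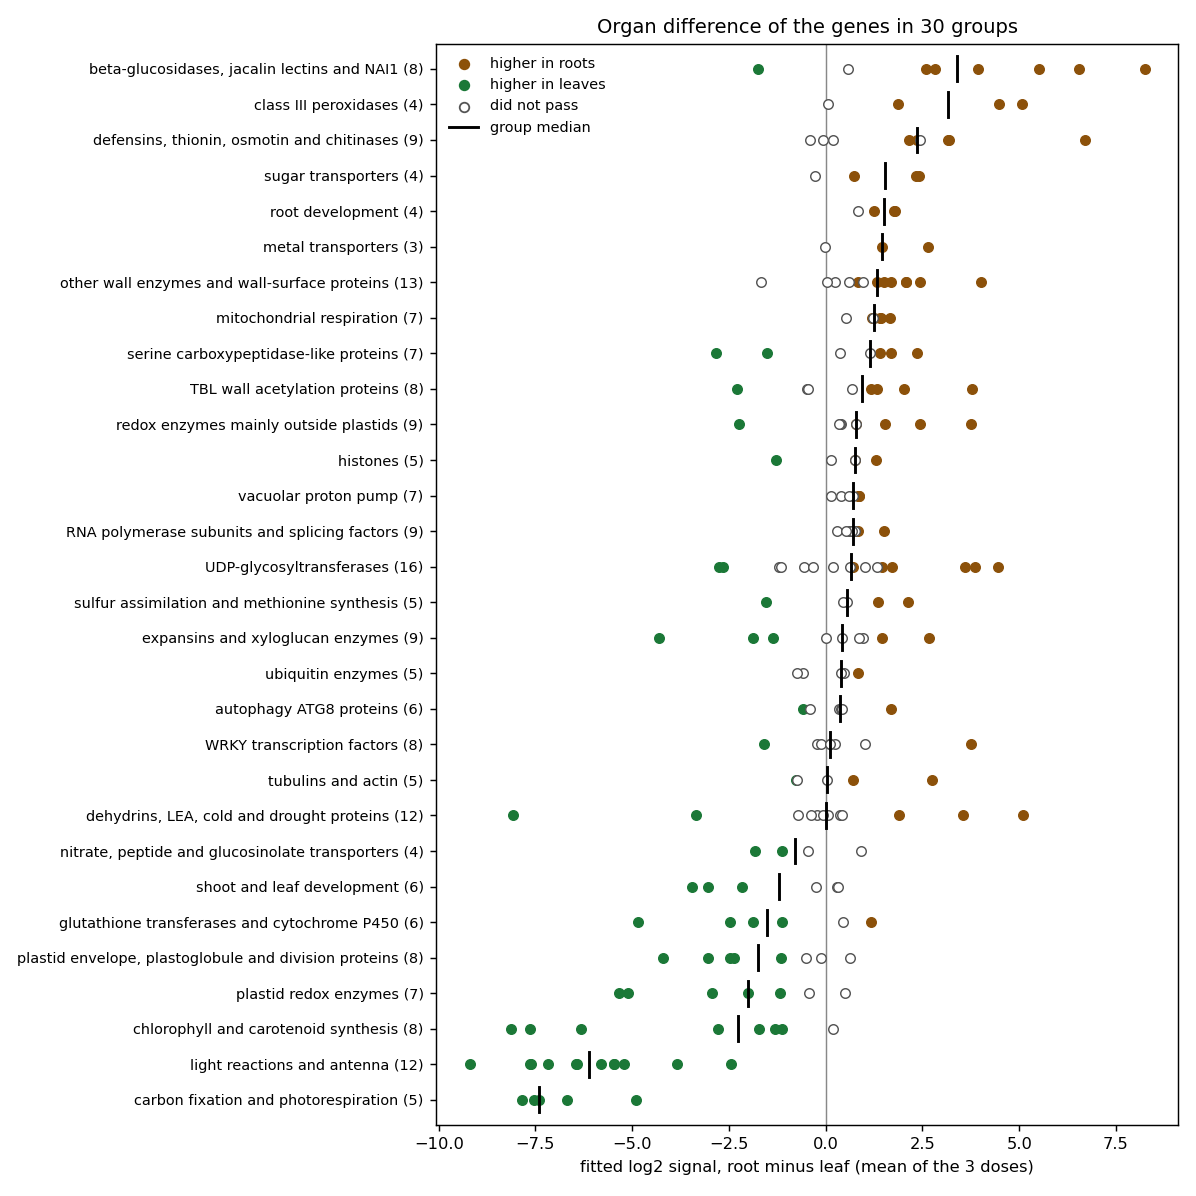
Fitted log2 difference in signal, root minus leaf, of the tested genes in 30 groups put together from gene names, with the number of genes in brackets; each point is a gene, filled brown where it was higher in roots, filled green where it was higher in leaves and open where it did not pass, and black bars are group medians. Carbon fixation (median -7.41) and the light reactions (-6.12) stood farthest to the leaf side with every member higher in leaves, and beta-glucosidases with jacalin lectins (3.38) farthest to the root side.

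Among the 30 groups shown in the plot of gene groups, the one with the highest median toward roots was that of beta-glucosidases, jacalin lectins and NAI1. That rank depended on how genes were grouped. In lists made from words in gene names, the median was 6.02 for 2 jacalin lectins, 4.48 for 3 class III peroxidases and 2.82 for 5 beta-glucosidases. Beta-glucosidases release small molecules from their sugar conjugates, jacalin lectins bind sugars, and NAI1 is the transcription factor that the formation of endoplasmic reticulum bodies, stores of such glucosidases, depends on. Of these 8 genes 6 were higher in roots, 1 was higher in leaves and 1 did not pass, with a median of 3.38. BGLU21 (AT1G66270), a glucosidase that cleaves the coumarin glucoside scopolin, measured 2314, 2604 and 2367 in roots, against 1.2, 1.7 and 1.3 in leaves. All root arrays were bright and all leaf arrays lay under the floor, so BGLU21 was at least 303-fold higher in roots (log2 difference 8.24, standard error 0.21, adjusted p = 1.2e-05). JAL34 measured 1011, 805 and 873 in roots, against 1.0, 1.0 and 13.7 in leaves, and JAL31 measured 319, 333 and 452 in roots, against 1.6, 4.6 and 7.3 in leaves. The lectins were at least 93.2-fold and 45.4-fold higher in roots. NAI1 itself measured 40.5, 41.0 and 67.4 in roots, against 3.6, 4.7 and 1.0 in leaves, a difference of 2.59. BGLU15 had a difference of 3.95 and BGLU46, which acts on the glucosides of lignin precursors, one of 2.82. BGLU33 went the other way with 1.3, 0.4 and 6.3 in roots, against 26.9, 24.1 and 29.9 in leaves; its call was lost with a floor of 25 (adjusted p = 0.332), which its leaf signals barely exceed.

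Many of the steepest root transcripts carry only a locus name in the RefSeq table used here. AT3G32980 measured 2611, 2974 and 2146 in roots, against 3.4, 3.3 and 3.5 in leaves, which is at least 319-fold higher in roots (adjusted p = 1.2e-05). AT5G64100 measured 3037, 2660 and 2024 in roots, against 2.8, 8.4 and 3.3 in leaves. AT4G30170 measured 1498, 1437 and 1479 in roots, against 3.8, 4.5 and 2.5 in leaves. These loci were bright on every root array and near or under the floor on every leaf array. Also far higher in roots were AT4G33720 at 7.58 and 7.11 on its 2 probe sets, AT4G15390 at 7.42 and AT2G38380 at 7.24 and 7.15. AT5G17820 had 7.23, AT2G38390 7.22 and AT5G46900 6.90. At 25 ppm the leaf signal was 22 for AT2G38380 on 1 probe set and 14.1 for AT5G46900, both above the floor. On the leaf side, AT1G09310 measured 0.4, 1.5 and 0.7 in roots, against 1925, 3087 and 2112 in leaves. AT2G26500 had a difference of -8.01 and AT1G23130 one of -7.71. ECS1 (AT1G31580) measured 30.6, 25.1 and 26 in roots, against 4517, 7140 and 5637 in leaves, a 209-fold higher level in leaves measured on both sides.

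Class III peroxidases are secreted heme enzymes that cross-link or loosen the wall with hydrogen peroxide. Of the 4 genes that the gene names used here mark as peroxidases, 3 were higher in roots and 1 did not pass. Loci without such a name, among them the steep root transcripts above, were not sorted into families. These 4 genes may therefore not be all the tested members of the family. AT5G66390, peroxidase 72, which takes part in lignin formation, measured 412, 140.4 and 447 in roots, against 7.8, 10.4 and 6.1 in leaves. AT2G41480, peroxidase 25, measured 96.4, 282 and 208 in roots, against 1.7, 3.4 and 2.4 in leaves. Both had a gap between the lowest root and the highest leaf array, with differences of 5.08 and 4.48. AT5G64120, peroxidase 71, measured 65.9, 20.7 and 84.4 in roots, against 37.5, 6.6 and 6.4 in leaves; the groups overlapped, and its call (1.86, adjusted p = 0.029) was lost under 4 alternatives, with an adjusted p of up to 0.176. PRXR1 was bright in both organs, with 2959, 2691 and 2396 in roots, against 2011, 2947 and 2858 in leaves.

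**Figure D2:**
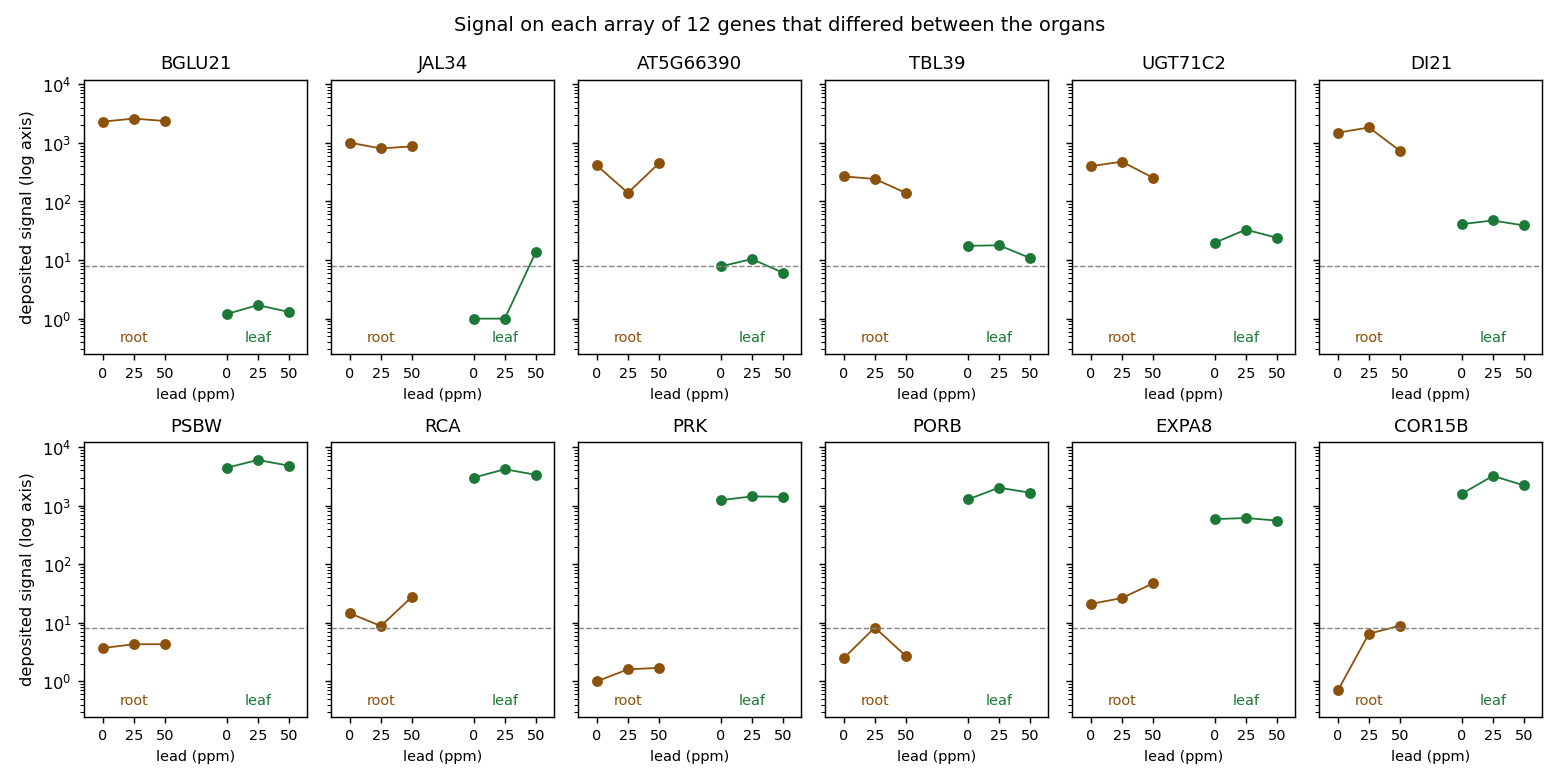
Deposited signal on a log axis for 12 genes, one panel each, with the 3 root arrays on the left (brown) and the 3 leaf arrays on the right (green) at 0, 25 and 50 ppm lead; the dashed line marks the floor of 8. BGLU21 lies between 2314 and 2604 in roots and under 2 in leaves, and PSBW under 5 in roots and at 4441 to 6023 in leaves. In none of the 12 panels do the organs overlap, but the genes were chosen after their values were seen.

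Cell wall genes had members on both sides. Over all genes 31.2% were higher in roots and 18.3% in leaves, with a median of 0.35, so calls in both directions are not particular to them. Of 9 expansins and xyloglucan enzymes, which loosen the wall and cut and rejoin its xyloglucan, 2 were higher in roots, 3 were higher in leaves and 4 did not pass; the median was 0.41, the mean -0.13, and the median without the 50 ppm pair -0.05. EXPA8 (AT2G40610) measured 21.0, 26.4 and 47.0 in roots, against 589, 615 and 556 in leaves, which is 19.8-fold higher in leaves. EXPA15 measured 54.4, 74.7 and 150.2 in roots, against 30.2, 34.4 and 29.1 in leaves, a difference of 1.45 (adjusted p = 0.017, lost without a filter at 0.114). Among the xyloglucan enzymes XTH26 had 2.66, XTH32 -1.87 and EXGT-A3 -1.37. XTH26 measured 31.4, 96.6 and 42.8 in roots, against 2.4, 2.5 and 5.5 in leaves; with a floor of 25 the calls of XTH26 and XTH32 were lost (adjusted p = 0.0712 and 0.173).

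TBL proteins, a family that includes enzymes adding acetyl groups to wall polysaccharides, had 4 of 8 members higher in roots and 1 higher in leaves. The shares over all genes were 31.2% and 18.3%, and 8 genes are too few to set the family apart from them. TBL39 measured 268, 243 and 139.8 in roots, against 17.5, 17.9 and 10.9 in leaves, a 13.9-fold higher level in roots. TBL45 measured 59.1, 61.5 and 69.9 in roots, against 164, 401 and 464 in leaves. TBL33 (2.02), TBL34 (1.33) and TBL37 (1.18) were also higher in roots, each with a call lost under at least 1 alternative; TBL34 had an adjusted p of up to 0.413. Of 13 other wall enzymes and wall-surface proteins, 8 were higher in roots, 0 were higher in leaves and 5 did not pass, with a median of 1.33. GH9B13, a glycosyl hydrolase of the cellulase family, measured 180.5, 153 and 75.9 in roots, against 1.7, 4.7 and 3.6 in leaves, at least 16.0-fold higher in roots. XEG113, which attaches arabinose to extensins, the structural glycoproteins of the wall, measured 197, 253 and 212 in roots, against 65.1, 55.5 and 51.8 in leaves. The SKU5 family, copper oxidase-like proteins of the cell surface, had 3 of 3 members higher in roots: sks16 at 2.43, sks15 at 1.5 and SKU5 at 0.84; the calls of sks15 and SKU5 were lost under 4 and 7 alternatives (adjusted p of up to 0.308 and 0.225). CSLC5, a glucan synthase for the xyloglucan backbone, had a difference of 1.68. The pectin methylesterases ATPMEPCRD (0.95) and ATPMEPCRB (-1.68) did not pass.

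Among enzymes that modify small molecules, single members were far apart in both directions. UDP-glycosyltransferases attach sugars to hormones, phenolics and foreign compounds; of 16 tested, 6 were higher in roots, 2 were higher in leaves and 8 did not pass, with a median of 0.67; over all genes 31.2% were higher in roots and 18.3% in leaves, so the family as a whole was near the background. UGT71C1 (AT2G29750) measured 163, 181 and 189 in roots, against 7.7, 8.0 and 8.1 in leaves, at least 22.1-fold higher in roots. UGT71C2 measured 401, 479 and 255 in roots, against 19.8, 33.1 and 24.0 in leaves, and UGT72E3, which acts on lignin precursors, measured 63.6, 94.1 and 150.3 in roots, against 1.2, 1.9 and 1.4 in leaves. Both were higher on every root array than on any leaf array. UGT84A3, which conjugates sinapic acid and related hydroxycinnamates, measured 4.4, 7.5 and 7.5 in roots, against 31.9, 86.9 and 58.6 in leaves. UGT87A2 measured 2.5, 10.2 and 55.6 in roots, against 176, 61.2 and 105 in leaves; its call was lost without a filter and without the 25 ppm pair (adjusted p = 0.146 and 0.0514). UGT72E1, a close relative of UGT72E3, measured 401, 57.1 and 127 in roots, against 239, 389 and 380 in leaves, and did not pass.

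Only 3 glutathione transferases and 3 P450 genes were tested, which is too few to compare the families. All 3 glutathione transferases were higher in leaves, with a median of -2.46, against 18.3% of all genes higher in leaves. Of 3 P450 genes 1 was higher in roots, 1 was higher in leaves and 1 did not pass, with a median of 0.44. Of 6 genes 1 was higher in roots, 4 were higher in leaves and 1 did not pass. GSTU18 measured 1.4, 1.9 and 4.0 in roots, against 268, 234 and 201 in leaves, at least 29.1-fold higher in leaves. GSTU16 measured 2.5, 1.8 and 10.1 in roots, against 37.5, 56.8 and 50.8 in leaves, and GSTF3 had a difference of -1.14, a call lost under 2 alternatives (adjusted p of up to 0.0871). The P450 genes CYP71B28 and CYP71B29 are next to each other in the genome: CYP71B28 measured 19.3, 19.6 and 58.0 in roots, against 96.6, 88.7 and 126 in leaves, while CYP71B29 measured 110.3, 57.5 and 153 in roots, against 48.8, 43.7 and 40.9 in leaves. CYP71B29 (1.16, adjusted p = 0.031) lost its call under 5 alternatives, among them leaving out the 0 ppm or the 50 ppm pair (0.106 and 0.101), and CYP71B28 lost it without a filter (0.0531). Serine carboxypeptidase-like proteins, some of which transfer acyl groups between metabolites, had 3 of 7 members higher in roots and 2 higher in leaves. Over all genes 31.2% were higher in roots and 18.3% in leaves. The median of the 7 members was 1.15, and it was -0.60 among the 4 members left by a filter at a signal of 100. scpl46 measured 12.4, 11.6 and 34.9 in roots, against 166, 106 and 104 in leaves, and scpl31 measured 72.2, 73.7 and 12.8 in roots, against 0.2, 0.7 and 0.9 in leaves. The calls of scpl26, scpl28, scpl31 and scpl46 were each lost under 1 to 4 alternatives, with adjusted p of up to 0.0878, 0.147, 0.128 and 0.0621.

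Secreted defence proteins were higher in roots where they passed. Of 9 defensins, thionins, osmotin-type proteins and chitinases, 5 were higher in roots, 0 were higher in leaves and 4 did not pass, with a median of 2.35. OSM34 (AT4G11650), an osmotin of the thaumatin family, measured 189, 1231 and 2424 in roots, against 1.2, 2.6 and 1.8 in leaves. Its lowest root array was far above the floor and its leaf arrays all under it, so it was at least 23.6-fold, 154-fold and 303-fold higher in roots at 0, 25 and 50 ppm. ATLP-1, another thaumatin-like protein, measured 177, 221 and 164 in roots, against 35.4, 54.6 and 24.8 in leaves. The defensin LCR68 measured 1254, 1846 and 1738 in roots, against 296, 412 and 366 in leaves, while LCR69 measured 777, 1634 and 1539 in roots, against 1556, 1968 and 1487 in leaves, and did not pass. PDF2.1, a further defensin, measured 137, 16.9 and 170.4 in roots, against 6.9, 6.5 and 6.1 in leaves; its call (3.20, adjusted p = 0.011) was lost under 3 alternatives, with an adjusted p of up to 0.116. PR-1-LIKE measured 59.7, 225 and 61.9 in roots, against 7.5, 9.5 and 15.0 in leaves, and lost its call without a filter (0.0655).

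Proteins of drought and cold protection were called no more often than genes in general. Of 12 genes 3 were higher in roots, 2 were higher in leaves and 7 did not pass, with a median of -0.01, yet single members were far apart. COR15B (AT2G42530), which protects chloroplast membranes in the cold, measured 0.7, 6.5 and 8.9 in roots, against 1592, 3223 and 2218 in leaves, at least 271-fold higher in leaves. KIN2 was 11.6-fold and 8.88-fold higher in leaves on its 2 probe sets, and measured 104, 261 and 1112 in roots, against 3056, 4451 and 3449 in leaves on the first. Both KIN2 calls were lost without a filter (adjusted p = 0.0831 and 0.0681). On the root side DI21, a drought-induced protein, measured 1495, 1841 and 736 in roots, against 41.1, 47.4 and 39.0 in leaves on 1 probe set, and had a difference of 5.31 on the other. AT2G46140, LEA27 of the late embryogenesis abundant proteins, measured 395, 531 and 582 in roots, against 46.9, 57.8 and 28.4 in leaves. The dehydrin LTI30 had a difference of 1.90, a call lost under 3 alternatives (adjusted p of up to 0.167), and the dehydrin COR47 gave -0.09 and 0.23 on its 2 probe sets.

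Redox enzymes outside plastids had 4 of 9 members higher in roots and 1 higher in leaves. Over all genes 31.2% were higher in roots and 18.3% in leaves, so counts of so few genes are not read as a trait of the group. Methionine sulfoxide reductases of the B type, which repair oxidised methionine, made up the extremes. MSRB5 (AT4G04830) measured 784, 389 and 563 in roots, against 22.2, 39.4 and 79.3 in leaves. MSRB9 measured 65.8, 56.9 and 114 in roots, against 21.0, 4.6 and 15.9 in leaves. MSRB6, the neighbour of MSRB5 in the genome, measured 0.4, 0.8 and 1.3 in roots, against 54.4, 23.4 and 42.5 in leaves, a difference of -2.24 that did not pass with a floor of 25 (adjusted p = 0.098). The quinone reductase NQR was 2.90-fold higher in roots.

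Transport and nutrient genes gave smaller differences. In sulfur assimilation the isoforms of ATP sulfurylase, the enzyme that activates sulfate, took opposite sides. APS4 (AT5G43780) measured 366, 826 and 933 in roots, against 86.4, 138 and 283 in leaves, and APS3 (AT4G14680) measured 76.2, 102 and 214 in roots, against 224, 405 and 465 in leaves. The differences were 2.13 (adjusted p = 0.0011) and -1.55 (adjusted p = 0.0038), and both were at least 2-fold apart at every dose. SIR, the sulfite reductase that comes later, had 0.55 and did not pass. Of the metal transporters ZIP9 measured 27.5, 76.5 and 71.7 in roots, against 5.6, 9.9 and 2.3 in leaves, and ZIP6 measured 103, 114 and 81.3 in roots, against 34, 43.9 and 31.6 in leaves; with a floor of 25 the call of ZIP9 was lost (adjusted p = 0.0592). ZIP proteins carry zinc and related metals into the cytosol; MTP11, a manganese exporter, had a difference of -0.02.

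Of 4 sugar transporters 3 were higher in roots, all of them carriers of the vacuole, and 1, SAG29, did not pass (-0.29). TMT1, which loads sugars into the vacuole, measured 578, 581 and 434 in roots, against 109, 84.0 and 103 in leaves on 1 probe set, and was 5.35-fold and 4.72-fold higher on both. SWEET17, a fructose carrier of the same membrane, measured 59.1, 45.7 and 73.1 in roots, against 8.8, 17.3 and 8.5 in leaves (lost without a filter, adjusted p = 0.0604). TMT2, a relative of TMT1, had a difference of 0.72 (adjusted p = 0.046), a call lost under 8 alternatives, among them leaving out the 0, 25 or 50 ppm pair (adjusted p of up to 0.161). The vacuolar proton pump had 3 of 7 subunits higher in roots, each under 2-fold: AVA-P2 at 0.87, VHA-A3 at 0.86 and AT4G02620, VHA-F, at 0.83. These calls were lost in fits that left out 1 dose pair, with adjusted p of up to 0.0685, 0.137 and 0.0704. Of 4 nitrate, peptide and glucosinolate transporters, 0 were higher in roots and 2 were higher in leaves, AT3G21670 (NPF6.4) at -1.82 and AT2G26690 (NPF6.2) at -1.13. Leaving out the 0 ppm or the 25 ppm pair ended both calls, with adjusted p from 0.0622 to 0.166.

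Regulators of organ form that passed lay on the side of the organ they are known from. Of 6 shoot and leaf development genes, 3 were higher in leaves and 0 in roots. YAB3 (AT4G00180), which specifies the lower side of leaves, measured 4.1, 2.4 and 2.0 in roots, against 91.0, 124 and 148 in leaves on 1 probe set. STOMAGEN, a peptide from the mesophyll that promotes stomata, measured 4.1, 3.7 and 11.9 in roots, against 67.1, 84.5 and 77.0 in leaves. NGA1, which shapes leaf margins, measured 1.4, 1.7 and 7.6 in roots, against 30.8, 46.1 and 33.2 in leaves. Among 4 root development genes, 3 were higher in roots and 1, HBT, did not pass (0.83). UPB1, which sets the size of the root meristem, measured 30.5, 21.4 and 32.4 in roots, against 0.6, 1.3 and 0.5 in leaves. LBD16, needed to start lateral roots, measured 37.3, 38.1 and 52.6 in roots, against 5.6, 19.5 and 12.4 in leaves, and LHW, a regulator of root vascular tissue, had a difference of 1.26. Signals of the root regulators were low, and each of the 3 calls was lost under 1 or more alternatives, with adjusted p of up to 0.174 for UPB1, 0.0694 for LBD16 and 0.0939 for LHW.

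WRKY transcription factors act in defence and senescence. Of 8 tested 1 was higher in roots, 1 was higher in leaves and 6 did not pass. WRKY29 measured 99.7, 60.8 and 209 in roots, against 1.9, 0.6 and 0.7 in leaves. WRKY53, which promotes leaf senescence, measured 21.4, 26.6 and 25.6 in roots, against 175, 58.4 and 39.5 in leaves; its call (-1.60, adjusted p = 0.037) was lost under 4 alternatives, with an adjusted p of up to 0.197. Mitochondrial respiration had 5 of 7 genes higher in roots, with a median of 1.24. The succinate dehydrogenase subunit SDH1-1 measured 150.1, 199 and 203 in roots, against 62.1, 66.1 and 78.1 in leaves, and CYTC-1, cytochrome c, measured 1651, 2273 and 1916 in roots, against 907, 850.4 and 788 in leaves. MAB1 and LTA3, parts of the mitochondrial pyruvate dehydrogenase complex, had differences of 1.66 and, on 3 probe sets, 1.22 to 1.59.

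Groups for tasks common to all cells varied. Over all genes 31.2% were higher in roots and 18.3% in leaves, with a median of 0.35. Mitochondrial respiration, given above, had 5 of 7 genes higher in roots and a median of 1.24. RNA polymerase subunits and splicing factors had 3 of 9 genes higher in roots and a median of 0.70, ubiquitin enzymes 1 of 5 with a median of 0.40, and ATG8 autophagy proteins 1 of 6 higher in roots (APG8A at 1.69) and 1 higher in leaves (ATG8F at -0.59). Of 5 genes for tubulins and actin, 2 were higher in roots, 1 was higher in leaves and 2 did not pass, with a median of 0.03. ACT11 measured 277, 168 and 179 in roots, against 20.2, 34.6 and 39.6 in leaves, whereas TUB6 had a difference of 0.03. Of 5 histones 2 were higher in roots, 1 was higher in leaves and 2 did not pass, with a median of 0.76. The replication-type H3 genes AT1G09200 (1.30) and AT5G65360 (0.76) were higher in roots. HIS1-3, a linker histone of drought stress, measured 10.8, 10.4 and 53.4 in roots, against 13.5, 45.3 and 145.4 in leaves. The calls of ATG8F, AT5G65360, HIS1-3 and all 3 polymerase and splicing genes were each lost under at least 2 alternatives.

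**Figure D3:**
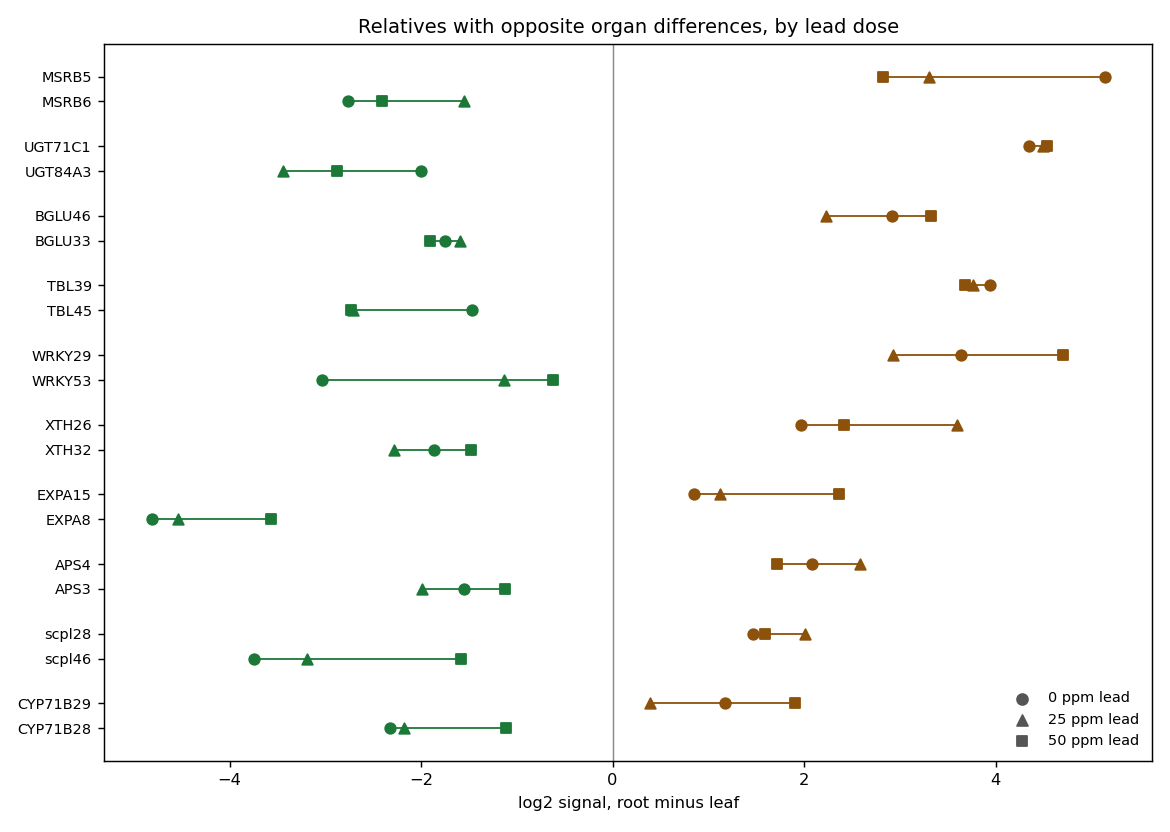
Log2 difference in signal, root minus leaf, at 0 ppm (circles), 25 ppm (triangles) and 50 ppm (squares) for 10 pairs of relatives chosen after their values were seen, the root-side gene in brown above the leaf-side gene in green. All points of the root-side genes lie right of 0 and all points of the leaf-side genes left of it; APS4 lies between 1.72 and 2.58 and APS3 between -1.99 and -1.12.

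Genes next to each other in the genome were also compared. In the RefSeq order of genes (assembly TAIR10.1), 451 pairs of neighbours were both tested, and in 133 pairs both were called. Of these 54 were both higher in roots, 21 both higher in leaves and 58 opposite, so 56.4% shared their direction, against 53.4% over all possible pairs of called genes. Of the 33 neighbouring pairs in which both genes were called and at least 4-fold apart, 24 shared their direction and 9 were opposite (72.7%), against 50.4% over all possible pairs of such genes; neighbours are not independent of one another, and no test was made. Named after their values were seen, the root-side pairs included UGT71C2 with UGT71C1, PDF2.1 with LCR68, DI21 with SWEET17, and the glutamate receptor-like genes GLR2.3 and GLR2.2. GLR2.3 measured 282, 407 and 17 in roots, against 1.0, 1.4 and 1.1 in leaves, and its call was lost under 4 alternatives (adjusted p of up to 0.133). Opposite pairs included MSRB5 with MSRB6, scpl28 with scpl26, and TRI, at 3.58, with AT2G29340, at -4.20. TRI measured 190.1, 38.4 and 126 in roots, against 0.5, 7.8 and 8.5 in leaves, and AT2G29340 measured 24.2, 20.0 and 26.8 in roots, against 421, 533 and 356 in leaves.

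The second question was how far the organ difference held at each dose. With 1 array per organ and dose there is no test at a single dose, so transcripts at least 2-fold apart were counted. At 0 ppm 1464 probe sets were higher in roots (27% of those tested) and 1176 were higher in leaves (21.7%). At 25 ppm the counts were 1580 (29.2%) and 1220 (22.5%), and at 50 ppm 1477 (27.3%) and 1104 (20.4%). At all 3 doses 943 were higher in roots (17.4%) and 851 were higher in leaves (15.7%). Of these 1794 probe sets 1793 also passed limma. A further 974 were 2-fold apart at 1 dose only and 756 at 2 doses in 1 direction, while 60 were 2-fold apart in opposite directions at 2 doses and 1830 were never 2-fold apart.

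Organ differences at different doses share no array. Across the 5414 probe sets, which are not independent of one another, they had a Pearson correlation of 0.930 between 0 and 25 ppm, 0.881 between 0 and 50 ppm and 0.899 between 25 and 50 ppm. Both pairs with the 50 ppm arrays were lower than the pair without them, and the 50 ppm root array had the highest background, at 192.65. Its part in this was not tested.

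**Figure D4:**
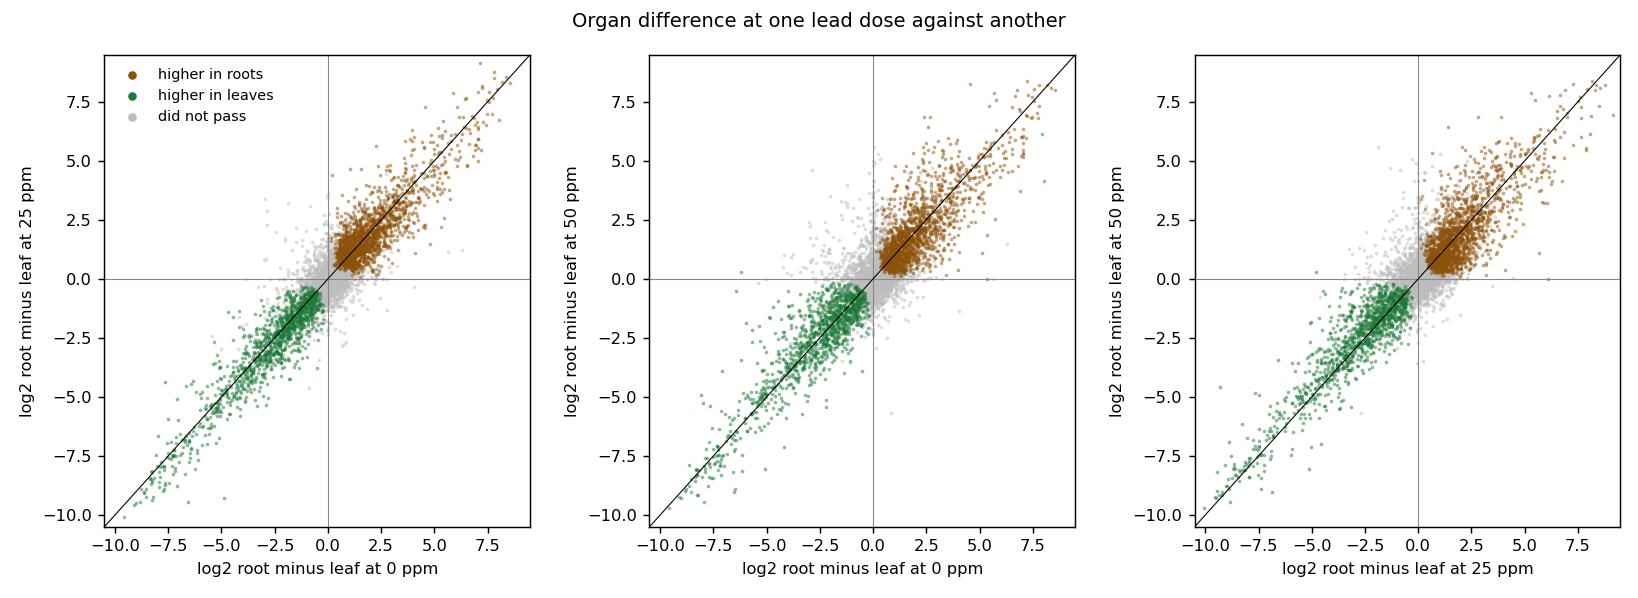
Log2 difference, root minus leaf, of 5414 probe sets at one dose on the horizontal axis against another dose on the vertical axis, coloured by the limma result over all doses (brown, higher in roots; green, higher in leaves; grey, did not pass). Points follow the diagonal with Pearson correlations of 0.930, 0.881 and 0.899 from left to right, and the scatter around it is widest near 0.

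Larger differences held more often. Of the probe sets that were 2-fold to 4-fold higher in roots at 0 ppm, 43.5% were at least 2-fold higher in roots at both other doses, and 98.2% of those at least 16-fold higher. For leaves these shares were 48.1% and 96.5%. Since the 0 ppm value chose the probe sets, some loss at the other doses follows from choosing high values. A wide difference also has to shrink further before it is under 2-fold, so part of the climb follows from the fixed cutoff. By organ, 64.4% of the 1464 root-side probe sets held at both other doses and 95.4% kept their sign at 50 ppm; of the 1176 leaf-side probe sets 72.4% held at both and 90.1% kept their sign at 50 ppm. The median difference of the root-side set was 1.92 at 0 ppm, 1.78 at 25 ppm and 1.75 at 50 ppm, and that of the leaf-side set was -2.36, -2.46 and -2.16.

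**Figure D5:**
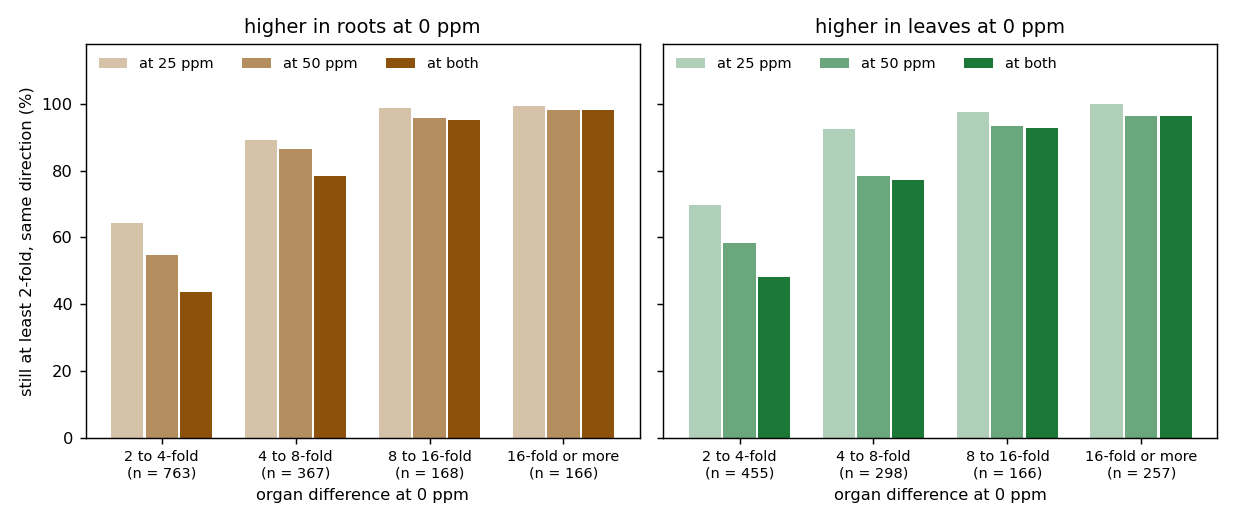
Share of the probe sets at least 2-fold higher in roots (left, brown) or in leaves (right, green) at 0 ppm that were still at least 2-fold apart in the same direction at 25 ppm, at 50 ppm and at both, by the size of the difference at 0 ppm. The share at both doses climbs from 43.5% to 98.2% for roots and from 48.1% to 96.5% for leaves.

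By function, the count past 2-fold was complete for photosynthesis. All 12 light-reaction genes and all 5 carbon fixation genes were at least 2-fold higher in leaves at every dose, and the medians of the light reactions were -5.91, -6.48 and -6.27. A group with a wide difference passes a 2-fold count more easily. The standard deviation of the group median over doses was 0.29 for light reactions and 0.28 for carbon fixation. Among the 30 groups it ran from 0.06 for UDP-glycosyltransferases to 0.98 for class III peroxidases. For chlorophyll and carotenoid synthesis 6 of 8 held at every dose. Beta-glucosidases and lectins had 6 of 8 genes at least 2-fold higher in roots at every dose, and defence proteins 5 of 9. By contrast, the vacuolar proton pump had 3 of 7 genes past 2-fold at 0 and 25 ppm and 0 at 50 ppm, and the nitrate, peptide and glucosinolate transporters had 2 of 4, 2 of 4 and 0. RNA polymerase subunits and splicing factors had 0 of 9 at 0 ppm, 6 at 25 ppm and 1 at 50 ppm.

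A limma test of whether the organ difference depended on lead set the 2 lead doses against a single control array per organ, whose spread is taken to be that of the lead arrays, on 2 residual degrees of freedom. In it 0 of 5414 probe sets passed (0%), the lowest adjusted p was 0.691, and 203 had an unadjusted p under 0.05 (3.75%). Without the 25 ppm root array 123 passed, without the 50 ppm root array 33, and without a filter 58 (1 root array with lead is left in the first 2 cases, and its spread is taken to be that of the other arrays). The differences below are therefore sizes without a test.

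By a rule added after the values were seen, 405 probe sets (7.48%) were at least 4-fold apart at 1 dose and under 2-fold at another. Of these 131 were widest in favour of roots at 50 ppm, which is the largest of the 6 classes by dose and organ; 65 were widest toward roots at 0 ppm and 66 at 25 ppm, and 60, 50 and 33 toward leaves at 0, 25 and 50 ppm. The 50 ppm root array is also the one with the high background. AT4G11190 measured 47.5, 21.2 and 700 in roots, against 1.2, 3.1 and 2.3 in leaves, and was above the leaf array at all doses; its call was lost under 3 alternatives (adjusted p of up to 0.181). AT1G52130 measured 8.6, 3.5 and 261 in roots, against 2.5, 8.7 and 8.7 in leaves, so its signal stood out on 1 array alone. ChiC, a class V chitinase, measured 0.7, 39.3 and 255 in roots, against 2.9, 5.3 and 2.7 in leaves. CCOAMT, a methyltransferase related to those of lignin synthesis, measured 49.8, 13.6 and 193 in roots, against 11.6, 11.1 and 10.5 in leaves; its call (2.20, adjusted p = 0.046) was lost under 11 alternatives, with an adjusted p of up to 0.229. AT5G26130 went the other way in roots with 325, 540 and 1.8, against 0.6, 0.6 and 0.8 in leaves, so that at 50 ppm both organs lay under the floor; its call was lost under 5 alternatives (adjusted p of up to 0.221).

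Some leaf-side differences were smaller at the lead doses. UGT87A2 was at least 22.0-fold higher in leaves at 0 ppm, and had log2 differences of -2.58 and -0.92 at 25 and 50 ppm. WRKY53 had -3.03, -1.13 and -0.63, and RR16, a response regulator of cytokinin signalling, had -2.83, -2.42 and -0.80. Leaf signals of RR16 were 56.9, 42.8 and 13.9, while its root signals were 0.2, 0.4 and 1.1, and its organ call was lost under 4 alternatives (adjusted p of up to 0.1005). KIN2 was 29.3-fold, 17.1-fold and 3.10-fold higher in leaves in dose order on 1 probe set, through root signals of 104, 261 and 1112. LYC was the other way, with -0.34, -1.85 and -2.24 on its called probe set: its root signals were 463, 200 and 146, against 587, 723 and 690 in leaves.

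Some genes changed sides between doses. Hsp70-2 (AT5G02490), a cytosolic chaperone, measured 41.7, 88.3 and 116 in roots, against 322, 8.4 and 24.2 in leaves, so leaves were higher at 0 ppm and roots at both lead doses. AT2G18690 measured 141, 458 and 701 in roots, against 673, 334 and 132 in leaves, and AT2G32210 measured 18.1, 42.9 and 208 in roots, against 73.9, 14.3 and 18.0 in leaves. CHI, a chitinase gene, measured 55.5, 216 and 472 in roots, against 298, 54.3 and 234 in leaves. AT3G47380 measured 37.3, 78.3 and 110 in roots, against 237, 199 and 32.7 in leaves on 1 of its probe sets. XTH33 was the reverse case, with 35.3, 30.9 and 2.2 in roots, against 1.6, 0.9 and 23.2 in leaves. Of the pectin methylesterase ATPMEPCRB the leaf signals were 157, 48.3 and 19.0 and the root signals 8.8, 15.8 and 37.8 on 1 probe set.

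Transcripts seen in 1 organ alone were defined as a signal of at least 100 on all 3 arrays of that organ and under 25 on all 3 of the other. There were 132 of root (58 of them named), which is 2.44% of the tested probe sets, and 195 of leaf (60 named), which is 3.60%. Whether a low signal is an absent transcript cannot be told from these values. They held 6.48 to 6.86% of the signal of each root array and 14.4 to 16.4% of that of each leaf array. Within their own organ, 77 of the root transcripts (58.3%) stayed within 2-fold across the 3 doses, and 174 of the leaf transcripts (89.2%). These shares were not computed for other bright probe sets, so they are not shown to be particular to transcripts of 1 organ. Members of the groups above among the root transcripts were BGLU21, JAL31, JAL34, TBL39, UGT71C1, OSM34 and AT5G66390, and DI21 on 1 of its 2 probe sets. Among the leaf transcripts were HPR, PRK and SBPASE of carbon metabolism, PORB, LIL3:1 and AT1G74470 of chlorophyll synthesis, PSBW, LHCB4.3 and TROL of the thylakoid, and AOR, TAPX, GSTU18 and COR15B. PSAE-1 met the definition on 2 of its 3 probe sets and LHB1B2 on 1 of 2; the probe set of LHB1B2 that met it measured 8.7, 9.9 and 9.3 in roots, against 285, 258 and 273 in leaves.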

How the data were processed

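The authors deposited 1 signal per probe set and array on a linear scale; the software behind it is not named in the labels or files used here. Trimmed means were near 100.1 to 100.2 on every array. All 6 value columns were used and 0 left out. The members and lists were chosen with earlier results of these data known. Control probe sets were left out, probe sets with a signal of at least 25 on 1 or more arrays were kept, values under 8 were raised to 8, and log2 was taken. Root was compared with leaf in limma 3.58.1 (R 4.3.3; eBayes with trend after lmFit, organ plus dose, two-sided, Benjamini-Hochberg, threshold 0.05), and the dependence on lead as an interaction of organ with lead; both were tested on simulated data. Dose is the block of the paired design, and it comes from the labels. Probe sets were named from the platform annotation and RefSeq (assembly TAIR10.1): 3784 name 1 gene, 70 several, 10 have no match and 4383 are unnamed here. The files state no build, so no coordinates are given. Genes named are, per direction, the 12 widest apart that passed and were 2-fold apart at all doses, the 8 most variable over doses, up to 8 that changed sides, up to 4 members of each group with up to 2 opposite ones, and the 5 brightest restricted transcripts; group members outside this rule were named after their values were seen. Of 54 lists made from words in gene names (12 false matches removed), 21 had at least 3 tested genes, 19 had 1 or 2 and 14 had 0; 30 groups of named genes, used in the text, were added once the names on the array were known. Alternatives were other scalings, floors and filters, leaving out each dose, other fits, a 4-fold rule and a fit per gene.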

Additional observations from a re-analysis of the deposited data

Results flagged for a closer look

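The genes Hsp70-2, AT2G18690, AT2G32210, CHI, AT3G47380 and XTH33 were singled out because the organ difference was at least 2-fold in opposite directions at 2 doses. The limma test of a dependence on lead gave each of them an adjusted p of 0.999, and at a single dose nothing could be tested. On the log2 scale, root minus leaf, Hsp70-2 ran from -2.95 at 0 ppm to 3.39 at 25 ppm on one probe set and from -3.0 at 0 ppm to 2.42 at 50 ppm on the other. AT2G18690 ran from -2.26 to 2.41 and AT2G32210 from -2.03 to 3.53, each from 0 to 50 ppm. CHI ran from -2.42 at 0 ppm to 1.99 at 25 ppm. AT3G47380 ran from -2.67 to 1.74 on one probe set and from -2.95 to 1.74 on a second, from 0 to 50 ppm. XTH33 had its highest difference, 2.14, at 0 ppm and its lowest, -1.54, at 50 ppm.

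Spike-in controls entered none of the comparisons. Their median signal was 1.56 times as high on the leaf array at 25 ppm as on the control leaf array. At 0, 25 and 50 ppm it was 103, 93.0 and 75.8 on root arrays, against 130.0, 203 and 83.5 on leaf arrays.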

How the results depend on the processing

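The number of arrays limits the precision, and 0 of 235 probe sets, those of the naming rule and the other genes named in the text, reversed in 2997 comparisons, over 12 or 13 alternatives each; 195 comparisons lost a call (60 probe sets) and 36 gained one (25). Of the 171 called, 111 kept their call under all of these, 20 lost it only without a filter or with a floor of 25, 39 without a dose pair and 13 when arrays were brought to 1 median over well-measured probe sets. Without 1 dose pair, 1146 to 1548 were higher in roots and 927 to 1152 in leaves. With no replicate block (organ without dose) the counts were 1804 and 1204, so pairing by dose moved no count by over 1.5 times. Averaging per gene left 2198 tests and 1088 calls, 686 higher in roots and 402 in leaves; a filter at 100 left 3054 tests with 1108 higher in roots and 1686, 1826 and 1639 probe sets 2-fold apart at 0, 25 and 50 ppm. With a floor of 25, 624 were 2-fold higher in roots at all doses. By a 4-fold rule 428 were higher in roots and 511 in leaves at all doses, and 1422, 1430 and 1408 differed at 0, 25 and 50 ppm. Transcripts of 1 organ alone numbered 62 in roots and 126 in leaves at a signal of at least 200, and 67 and 83 with the other organ under 8. The dependence on lead had 58 calls without a filter and 0 to 123 without 1 lead-treated array; the cause was not tested. The median of the light reactions was -6.45 with a floor of 1, -5.51 with an offset and -6.43 with a filter at 100. That of serine carboxypeptidase-like proteins reversed to -0.60 with a filter at 100, which kept 4 of 7 members.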
